A study of Mus musculus with 12 samples.

Results

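Cholesterol synthesis genes were followed in mouse epiblast stem cells (EpiSCs) through 8 genes: Hmgcs1, Idi1, Fdft1, Sqle, Lss, Dhcr7, Srebf2 and Insig1. EpiSCs are pluripotent and resemble cells of the implanted embryo's epiblast. The genes were fixed by name, each was read from the probe annotated to it alone with the highest mean, and all 8 were found among the 19938 genes measured. The cells, of genetic background 129, were given no compound (NT), CHIR99021 at 3 µM for 2 h (CHIR), XAV939 at 2 µM (XAV) or both compounds together (CHIR + XAV), with 3 arrays in each of the 4 groups. CHIR99021 inhibits the kinase GSK3 and so stabilises beta-catenin. XAV939 inhibits tankyrase, which stabilises Axin and lowers beta-catenin. XAV939 was given for 2 h by the sample labels but 4 h by the design text, a discrepancy that the sources used here do not settle. Before treatment the cells were starved of serum for 12 h, which the labels do not state separately for NT, and a growth medium with 10% serum is recorded for every sample. Serum lipoproteins are a source of cholesterol for cultured cells. The labels call NT untreated and name no vehicle, and they describe the cells both as EpiSCs and as embryonic stem cells. Whether the 3 arrays of a group had cultures of their own is not stated, and the p-values therefore reflect only differences among these arrays, which may be technical.

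Cells make cholesterol from acetyl-CoA through mevalonate, isoprenoid diphosphates, squalene and lanosterol. The transcription factor SREBP2, encoded by Srebf2, is held in the endoplasmic reticulum by Scap and the Insig proteins when sterols are plentiful. When sterols are scarce it moves to the Golgi, is cut by site-1 and site-2 proteases, and its freed part enters the nucleus and turns on most enzyme genes of the pathway, as well as Insig1 and Srebf2 themselves. Messenger RNA levels of these genes are therefore widely used as a readout of SREBP2 activity.

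SREBP2 binds sterol regulatory elements, usually beside sites for NF-Y and Sp1. RefSeq promoters (GRCm38.p6) were matched for 6 of the 8 genes, with 8 start sites in all, and the 250 bases before each start were searched on both strands for TCACNCCAC (sterol regulatory element), CCAAT (NF-Y) and GGGCGG (Sp1). TCACNCCAC was found before the start of Hmgcs1 alone, beginning 137 bases upstream, and in 1.05% of all 32851 promoters. Only this string was searched, within 250 bases, so a missing match does not show that a gene lacks such an element. CCAAT was found at 6 of the 8 starts (33.8% of all promoters), GGGCGG at 7 (32.7%) and both at 6 (11%). No match of different motifs overlapped in the 3 windows printed. These windows are shown because Hmgcs1 holds all 3 motifs, Srebf2 is the gene with the smallest p in any comparison, and Idi1 has the largest measured change; capitals mark the matches on either strand, and a match is a description of letters, not of binding.
Hmgcs1, chr13:119690101-119690350, plus strand: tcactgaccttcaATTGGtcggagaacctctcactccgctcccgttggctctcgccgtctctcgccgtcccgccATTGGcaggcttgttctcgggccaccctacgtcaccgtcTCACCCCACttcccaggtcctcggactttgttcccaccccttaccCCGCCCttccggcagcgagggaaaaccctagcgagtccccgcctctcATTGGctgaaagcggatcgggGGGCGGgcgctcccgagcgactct
Srebf2, chr15:82147019-82147268, plus strand: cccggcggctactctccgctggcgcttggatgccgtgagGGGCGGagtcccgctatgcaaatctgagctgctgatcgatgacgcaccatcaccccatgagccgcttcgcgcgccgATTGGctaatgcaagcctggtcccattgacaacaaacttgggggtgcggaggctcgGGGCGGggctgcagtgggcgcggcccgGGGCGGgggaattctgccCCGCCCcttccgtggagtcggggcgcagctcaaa
Idi1, chr13:8885356-8885605, plus strand: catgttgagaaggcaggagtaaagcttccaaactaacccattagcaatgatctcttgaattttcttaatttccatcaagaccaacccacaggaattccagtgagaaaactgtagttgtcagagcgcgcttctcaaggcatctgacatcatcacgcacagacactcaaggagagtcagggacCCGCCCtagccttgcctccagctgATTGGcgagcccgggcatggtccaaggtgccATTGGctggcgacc

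Values are log2 expression as deposited, and a change is a difference of group means on that scale. As a rough measure of background, 95% of 1194 olfactory and vomeronasal receptor genes had means under 4.94. All 8 genes lay far above it on every array, with a lowest value of 8.97 among 96. The 8 EpiSC markers examined, Pou5f1, Sox2 and Nanog among them, had means between 8.16 and 11.6, and none was called in any comparison. Nanog, at 8.77 in NT and 9.15 in CHIR, came closest with CHIR99021 over all arrays (change of 0.27, limma adjusted p = 0.0679). In that comparison 6 of the 8 markers had changes below 0. Of 26 measured markers of naive cells, feeder fibroblasts, endoderm, mesoderm and neural cells, 12 had means above the background measure, at most 7.61, with Nes, Thy1 and Tfcp2l1 the brightest. Tbx3 and Klf2 were higher and Pax6 lower with CHIR99021 over all arrays (changes of 0.40, 0.21 and -0.25, limma adjusted p = 0.013, 0.038 and 0.0336). Their means of 5.05, 5.54 and 5.30 were close to the background measure, and Tbx3 averaged 4.93 in NT and 4.77 in XAV, below it. The part of these other cell types in the results was not tested. In such bulk RNA, a change in the make-up of the culture and a change in RNA per cell cannot be told apart. Known targets of the pathway differed between the groups: the beta-catenin target Axin2 read 5.77, 6.04 and 6.03 in NT and 6.96, 7.03 and 7.02 in CHIR, a change of 1.06 (SE 0.10, limma adjusted p = 4.83e-05), and Nodal was 0.74 lower in CHIR + XAV than in CHIR (SE 0.09, adjusted p = 0.00954). Axin2 did not pass in that comparison (-0.57, limma adjusted p = 0.0788), and in XAV against NT neither Nodal (-0.47, adjusted p = 0.155) nor Axin2 (-0.22, adjusted p = 0.418) passed.

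None of the 8 sterol genes passed the test in any comparison, where 0% to 1.59% of all genes passed by comparison. The group means of a member differed by at most 0.26. Over the 7 comparisons of groups, the fitted changes ran from -0.23 to 0.18, both for Idi1, and limma adjusted p-values ranged from 0.165 to 0.999 over all 8 comparisons, the interaction included. The 95% intervals of these changes reached no further than -0.45 and 0.40, or 0.731-fold and 1.32-fold; without Idi1 they reached no further than -0.30 and 0.32. An interval is a limit on the size of a change and does not show that the groups are equal. The range of the 4 group means was 0.117 on the log2 scale for the median member, against 0.13 for the median of the 2417 genes at least as bright as Dhcr7, the dimmest member, and 0.167 over all genes. While 5 members had a smaller range than the median bright gene, Idi1, Fdft1 and Srebf2 had a wider one. Their ranges exceeded those of 91.8%, 77.5% and 64% of the bright genes. At an unadjusted p under 0.05, 4 of the 64 tests of a gene in a comparison passed, all of them of Srebf2 or Idi1; the share of all genes passing so ran from 4.94% to 18.7% by comparison.

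**Figure D1:**
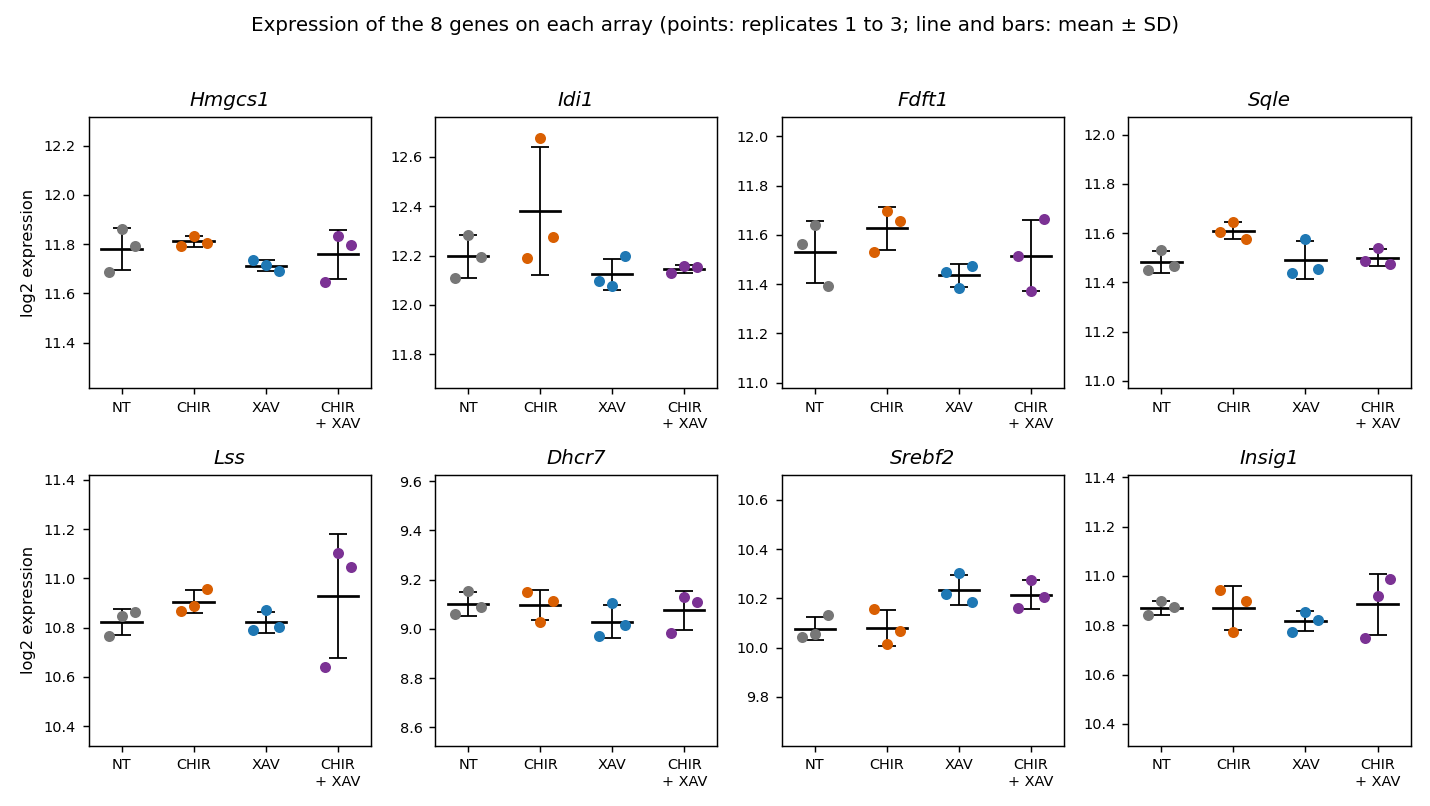
Log2 expression (vertical axes, all of the same span but not starting at 0) of the 8 genes in the 4 groups; points are the 3 arrays of a group, the line is their mean and the bars are the SD. The group means of a gene differ by at most 0.26; Idi1 in CHIR replicate 2, at 12.68, and Lss in CHIR + XAV replicate 1, at 10.64, stand apart from the other arrays of their groups, and Srebf2 is higher in both groups with XAV939.

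At the entry to the pathway, Hmgcs1 encodes the cytosolic HMG-CoA synthase. Its values were 11.69, 11.86 and 11.79 in NT, 11.79, 11.84 and 11.80 in CHIR, 11.73, 11.71 and 11.69 in XAV, and 11.65, 11.83 and 11.80 in CHIR + XAV. In each comparison the groups overlapped. The change was 0.031 (SE 0.074) with CHIR99021 alone and 0.046 (SE 0.074) with CHIR99021 on top of XAV939, and neither passed (limma adjusted p = 0.931 and 0.881). With XAV939 it was -0.068 alone and -0.053 on top of CHIR99021 (SE 0.074; adjusted p = 0.752 and 0.833).

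Idi1, the isopentenyl diphosphate isomerase that makes dimethylallyl diphosphate, varied most. It measured 12.11, 12.29 and 12.20 in NT, 12.19, 12.68 and 12.28 in CHIR, 12.10, 12.08 and 12.20 in XAV, and 12.13, 12.16 and 12.15 in CHIR + XAV. CHIR replicate 2 was the highest array, and the arrays with both compounds lay below those with CHIR99021 alone without overlap, as they did for 2 of the 8 genes (Sqle is the other) and 7.18% of all genes. The change with CHIR99021 alone was 0.18 (SE 0.10, limma adjusted p = 0.571) and 0.037 without that array. With XAV939 on top of CHIR99021 it was -0.23 (SE 0.10; unadjusted p = 0.0356, adjusted p = 0.419), and -0.088 without that array. The other probe of Idi1 had its highest value, 12.71, on the same array, while CHIR replicates 1 and 3 read 11.88 and 12.15, and gave changes of 0.28 and -0.35 in these comparisons, which did not pass either (adjusted p = 0.573 and 0.435).

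Further along, Fdft1 encodes squalene synthase, which joins farnesyl diphosphate into squalene, and Sqle encodes squalene epoxidase, a rate-limiting step of the later pathway. Fdft1 read 11.56, 11.64 and 11.39 in NT, 11.53, 11.70 and 11.66 in CHIR, 11.45, 11.38 and 11.47 in XAV, and 11.51, 11.37 and 11.66 in CHIR + XAV. Its groups overlapped in every comparison, and its changes were 0.095 with CHIR99021 alone and -0.097 with XAV939 alone (SE 0.088; limma adjusted p = 0.772 and 0.694). These values rest on single NT arrays: they were 0.025 and -0.17 without NT replicate 3, and 0.15 and -0.044 without NT replicate 2. The other probe of Fdft1 gave 0.084 and -0.02 (adjusted p = 0.811 and 0.952). Sqle measured 11.45, 11.53 and 11.47 in NT, 11.61, 11.65 and 11.58 in CHIR, 11.44, 11.58 and 11.46 in XAV, and 11.49, 11.54 and 11.47 in CHIR + XAV. Its CHIR arrays lay above its NT arrays without overlap. Lss did the same, making 2 of the 8, and 8.09% of all genes were separated in this direction. The Sqle change of 0.13 (SE 0.07) did not pass (limma adjusted p = 0.559). With XAV939 present the CHIR99021 change of Sqle was 0.011 (SE 0.069, adjusted p = 0.976); the difference between these responses, the interaction, was -0.12 (SE 0.10, adjusted p = 0.97).

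Lss encodes lanosterol synthase, which closes the sterol rings, and Dhcr7 encodes the reductase of the last step to cholesterol in one arm of the pathway. Lss read 10.76, 10.85 and 10.86 in NT, 10.87, 10.89 and 10.96 in CHIR, 10.79, 10.87 and 10.80 in XAV, and 10.64, 11.10 and 11.05 in CHIR + XAV. The last group held both the lowest and the highest array for this gene. Its change in CHIR + XAV was 0.11 against NT and 0.11 against XAV (SE 0.10; limma adjusted p = 0.588 and 0.771). Without CHIR + XAV replicate 1 these changes were 0.25 and 0.25, which still did not pass (adjusted p = 0.127 and 0.235). Dhcr7 read 9.06, 9.15 and 9.09 in NT, 9.15, 9.03 and 9.11 in CHIR, 8.97, 9.10 and 9.01 in XAV, and 8.98, 9.13 and 9.11 in CHIR + XAV. Its groups overlapped in every comparison, with changes between -0.071 and 0.045 in the 5 comparisons of group pairs.

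The regulators differed from each other in their order. Insig1, whose protein retains SREBP2 when sterols are plentiful and whose own transcription depends on SREBP2, read 10.84, 10.90 and 10.87 in NT, 10.94, 10.77 and 10.90 in CHIR, 10.77, 10.85 and 10.82 in XAV, and 10.75, 10.92 and 10.99 in CHIR + XAV. The groups overlapped in every comparison. Its change was -0.00013 (SE 0.078) with CHIR99021 alone and -0.055 (SE 0.078) with XAV939 alone (limma adjusted p = 0.999 and 0.819). Srebf2 itself measured 10.04, 10.06 and 10.13 in NT, 10.16, 10.01 and 10.07 in CHIR, 10.22, 10.30 and 10.18 in XAV, and 10.16, 10.28 and 10.21 in CHIR + XAV. Its 6 arrays with XAV939 all lay above its 6 arrays without it, by a margin of 0.0026 between CHIR replicate 1 and CHIR + XAV replicate 1; such separation upward was seen for 1 of the 8 members and for 1.01% of all genes. It was likewise the 1 member higher without overlap in XAV against NT (9.48% of all genes), in CHIR + XAV against CHIR (8.92%) and in CHIR + XAV against NT (13%). The mean XAV939 change of Srebf2 was 0.15 (SE 0.05, 95% interval 0.039 to 0.25). It was 0.16 without CHIR99021 and 0.13 with it, comparisons that share no array. The mean change did not pass over all genes (limma unadjusted p = 0.0106, adjusted p = 0.165; adjusted p between 0.103 and 0.31 over the alternatives).

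Srebf2 hosts a microRNA, miR-33, that represses the cholesterol exporter Abca1, and its mature sequence is shown because gene and microRNA share a transcript (RefSeq, GRCm38.p6, chr15:82198127-82198147, plus strand; capitals mark the seed, bases 2 to 8).
mmu-miR-33-5p: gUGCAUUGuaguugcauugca
The Mir33 probe, looked up after the values were seen, read between 3.39 and 3.59 on all arrays, below the background measure. Whether this probe reads the mature microRNA was not tested, so the level of miR-33 itself is not known from these arrays.

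**Figure D2:**
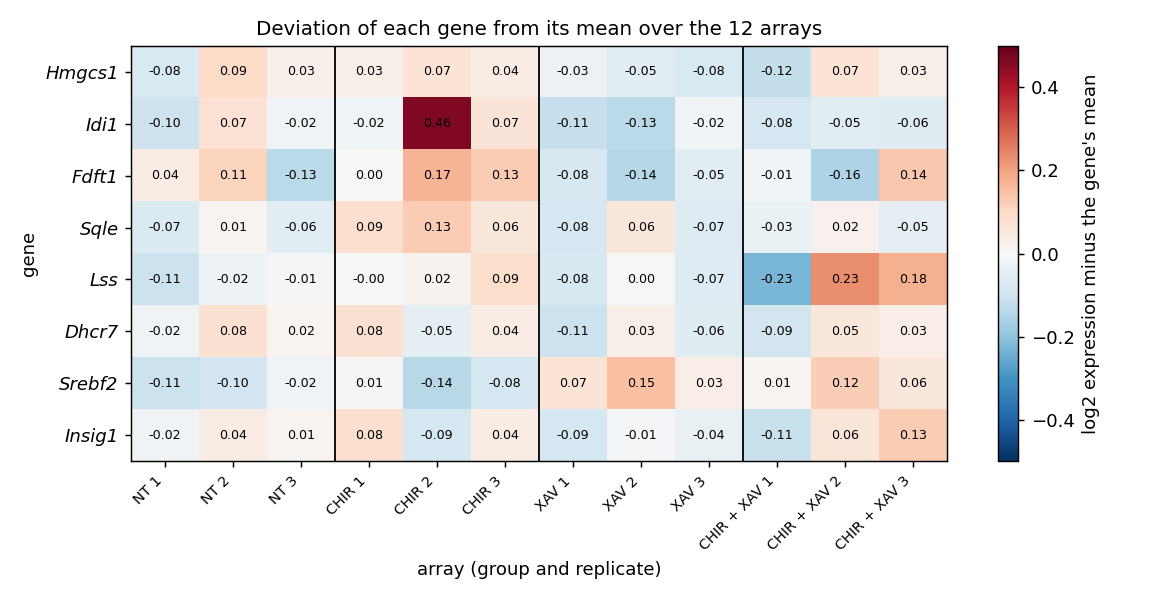
Log2 expression of each gene minus its mean over the 12 arrays, by array (columns, in 4 groups of 3) and gene (rows); red is above the mean and blue below. Single cells of the map, such as Idi1 in CHIR replicate 2, are stronger than any block of a whole group.

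On no array did all 8 genes deviate the same way. The 6 enzyme genes, without Srebf2 and Insig1, were all above their means on CHIR replicate 3. On XAV replicates 1 and 3 and CHIR + XAV replicate 1, 0 of the 6 were. The other arrays had between 1 and 5 of the 6 above. CHIR replicates 1, 2 and 3 had 6, 5 and 7 of the 8 genes above their own means over the 12 arrays, and XAV replicates 1, 2 and 3 had 1, 4 and 1. CHIR + XAV was split, with 1 gene above its mean on replicate 1 and 6 on each of replicates 2 and 3. NT was split too, with 1, 6 and 3. The mean deviation of the 8 genes was lowest on CHIR + XAV replicate 1, at -0.085, and highest on CHIR replicate 2, at 0.072. XAV had the lowest group mean for 6 genes, all except Sqle and Srebf2, and CHIR the highest for 4, namely Hmgcs1, Idi1, Fdft1 and Sqle. No pair of neighbouring groups that was compared passed the test; CHIR and XAV, neighbours in the order of Insig1, were not compared.

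The CHIR99021 response was measured in a pair of comparisons that share no array. Against NT, CHIR99021 gave a median change of 0.056 over the 8 genes, beside 0.033 for genes as bright and -0.0053 for all genes. None of the 8 was called by limma (0.421% of all genes were), and 0 passed at an unadjusted p under 0.05 (10.3% of all genes). Against XAV, adding CHIR99021 gave a median change of 0.045, beside 0.02 for genes as bright, with 0 called (0.236% of all genes) and 0 at an unadjusted p under 0.05 (9.69%). Over all 12 arrays, 7 of the 8 changes were above 0, with a median of 0.054. Among genes as bright, 1633 of 2417 were above 0, with a median of 0.028. None of the 8 was called (1.59% of all genes) and none had an unadjusted p under 0.05 (14%).

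XAV939 gave changes below 0 for 6 of the 8 genes against NT, with a median of -0.061 beside 0.015 for genes as bright and 0.00057 for all genes. Among genes as bright, 1034 of 2417 had changes below 0. No member was called, nor was any gene (0%), and 1 member, Srebf2, had an unadjusted p under 0.05 (11.2% of all genes). On top of CHIR99021 the median change was -0.038, with 0 of 8 called (0.0251% of all genes) and 1, Idi1, at an unadjusted p under 0.05 (11%). Averaged over both settings, 6 of 8 changes were below 0, beside 1103 of 2417 for genes as bright. None of the 8 was called (0.331% of all genes), and Srebf2 and Idi1 had an unadjusted p under 0.05 (16.9%), in opposite directions. CHIR + XAV against NT, which shares the NT arrays with the single treatments, had a median member change of -0.0014 with 4 genes above 0 and 4 below; 0 were called (1.13% of all genes) and 0 had an unadjusted p under 0.05 (18.7%). The interaction gave 0 calls among the members and 0 among all genes (0%), with 0 members and 4.94% of all genes at an unadjusted p under 0.05.

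**Figure D3:**
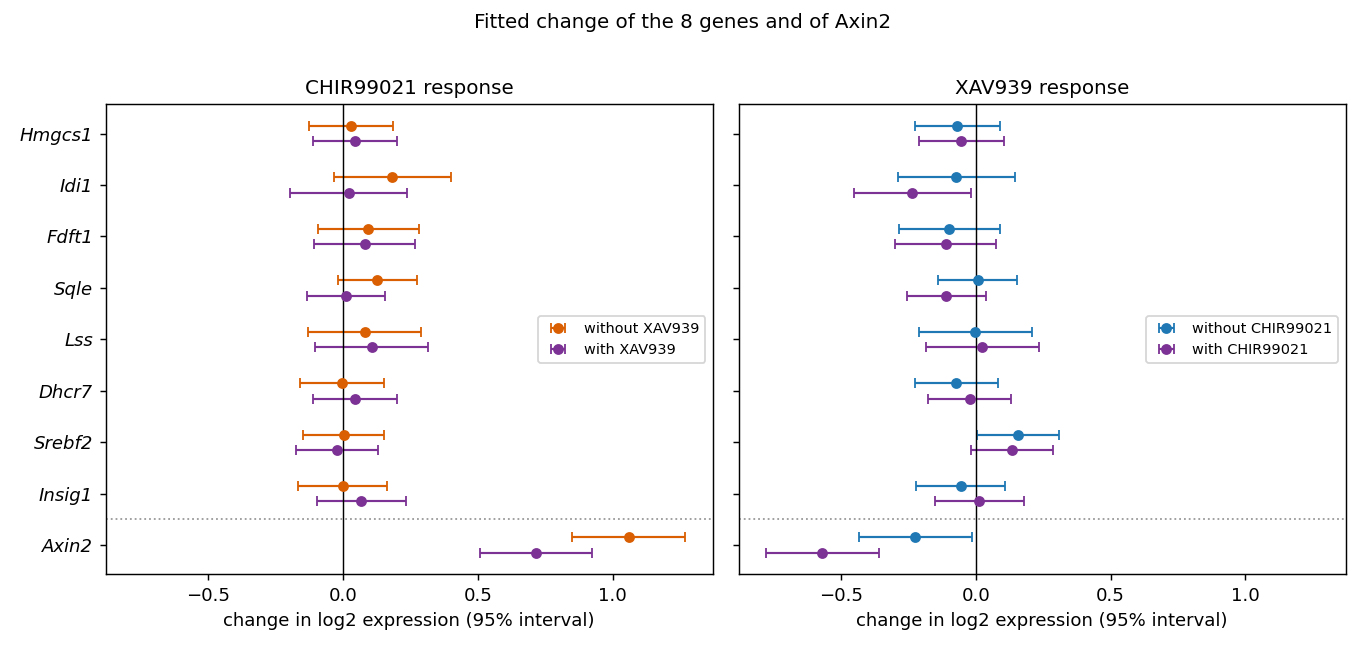
Change in log2 expression (horizontal axis) of the 8 genes and, below the dotted line, of Axin2; points are fitted changes and bars 95% intervals, for CHIR99021 (left) and XAV939 (right), each without and with the other compound. The intervals of the 8 genes crowd around 0, and only Idi1 with XAV939 on top of CHIR99021 and Srebf2 with XAV939 alone exclude it before adjustment, while Axin2 lies at 1.06 and 0.72 with CHIR99021.

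Other enzymes of the pathway were measured for 12 of the 15 genes listed, and none was called in any comparison. With CHIR99021 over all arrays, 10 of 12 changes were above 0, with a median of 0.079. Among genes as bright as the members, 1633 of 2417 were above 0, with a median of 0.028. Several of the 12, such as Ebp and Pmvk, are dimmer than that. Over all genes, 9510 of 19938 were above 0, with a median of -0.005. At an unadjusted p under 0.05, 3 of the 12 passed, all upward (6.98% of all genes). Cyp51, lanosterol demethylase, had a change of 0.17 (SE 0.05, limma adjusted p = 0.133). Its CHIR arrays (11.16 to 11.31) lay above its NT arrays (10.91 to 11.03), a change of 0.28 (adjusted p = 0.127). Such separation upward was seen for 3 of the 12 and 8.09% of all genes. With XAV939 present the Cyp51 groups overlapped, with a change of 0.055 (limma adjusted p = 0.855). Its interaction of -0.22 did not pass (adjusted p = 0.965), and 8 of the 12 interactions were above 0 and 4 below. Over all arrays, Hsd17b7, a sterol ketone reductase, and Sc5d, a sterol desaturase, differed by 0.17 and 0.16 with CHIR99021 (adjusted p = 0.179 and 0.19). Fdps, farnesyl diphosphate synthase, differed by 0.11 (adjusted p = 0.362). The 6 Sc5d arrays with CHIR99021 lay above the 6 without it, as in 0.782% of all genes and none of the 8. Ebp, the sterol isomerase, was singled out after its values were seen: it averaged 7.05 in NT and 7.20 in CHIR against 6.81 in XAV and 6.78 in CHIR + XAV. The mean XAV939 change of -0.33 (SE 0.08) missed the threshold (limma adjusted p = 0.07). Its 6 arrays with XAV939 were all below its 6 without it, as in 0.517% of all genes.

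Genes of sterol sensing, uptake and transport gave 8 measured members of 11 and no call. Stard4, a carrier of cholesterol, and Npc2, which takes part in its release from lysosomes, had changes of 0.17 and 0.12 with CHIR99021 over all arrays (limma adjusted p = 0.295 and 0.381). Mbtps1, the site-1 protease that cuts SREBP2, had a change of 0.11 and its escort Scap one of 0.054 (adjusted p = 0.463 and 0.753). The median of this list was 0.049 with CHIR99021 and 0.078 with XAV939. Srebf1, singled out after its values were seen as the other SREBP gene, had a mean XAV939 change of 0.14 (SE 0.06, adjusted p = 0.217), near that of Srebf2.

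Fatty acid genes that SREBPs also control were all measured, 12 of 12, with no call. The median change was 0.078 with CHIR99021 and 0.068 with XAV939 over all arrays. Elovl6, a fatty acid elongase, had a change of 0.16 with CHIR99021, Acaca, acetyl-CoA carboxylase, of 0.14, Acss2, an acetyl-CoA synthetase, of 0.16 and the desaturase gene Fads1 of 0.11 (limma adjusted p between 0.284 and 0.476). The Elovl6 change was 0.31 without XAV939 and 0.0068 with it, and the interaction of -0.30 did not pass (adjusted p = 0.965). Acss2 went the other way, with a change of -0.0085 without XAV939 and 0.34 with it. Its interaction of 0.34 did not pass either (limma adjusted p = 0.965). Over the 12 genes, 6 interactions were above 0 and 6 below.

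Branches that leave the mevalonate pathway for protein prenylation, dolichol and tRNA were measured for 6 of 7 genes, again with no call. Pggt1b, a subunit of a protein prenyltransferase, had the largest change of any listed sterol or lipid gene, 0.52 in CHIR + XAV against NT (SE 0.13, limma adjusted p = 0.06). With CHIR99021 over all arrays its change was 0.27, that of Dhdds, of dolichol synthesis, 0.15, that of Fntb, a farnesyltransferase subunit, 0.12 and that of Trit1, a tRNA isopentenyltransferase, 0.082 (adjusted p between 0.176 and 0.642).

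Ubiquitin ligase genes linked to sterol-dependent breakdown of the enzymes, 4 measured of 6, had CHIR99021 changes between 0.016 and 0.091 over all arrays: Marchf6 (0.016), Rnf139 (0.024), Rnf145 (0.037) and Syvn1 (0.091). LXR targets and export genes, which act against sterol accumulation, had a median change of -0.042 with CHIR99021, with 6 of the 8 measured below 0. Over all genes, 10428 of 19938 were below 0. Mylip, which lowers the LDL receptor, had a change of -0.081, Abcg1, a sterol exporter, of -0.11 and the exporter gene Abcg5 of -0.067, while that of the LXR gene Nr1h3 was 0.067 (limma adjusted p between 0.511 and 0.705). Of the 8 genes, 4 (Abca1, Abcg5, Abcg8 and Nr1h3) had means below the background measure, and 3 of these are among the 6 with changes below 0. No gene of either list was called.

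**Figure D4:**
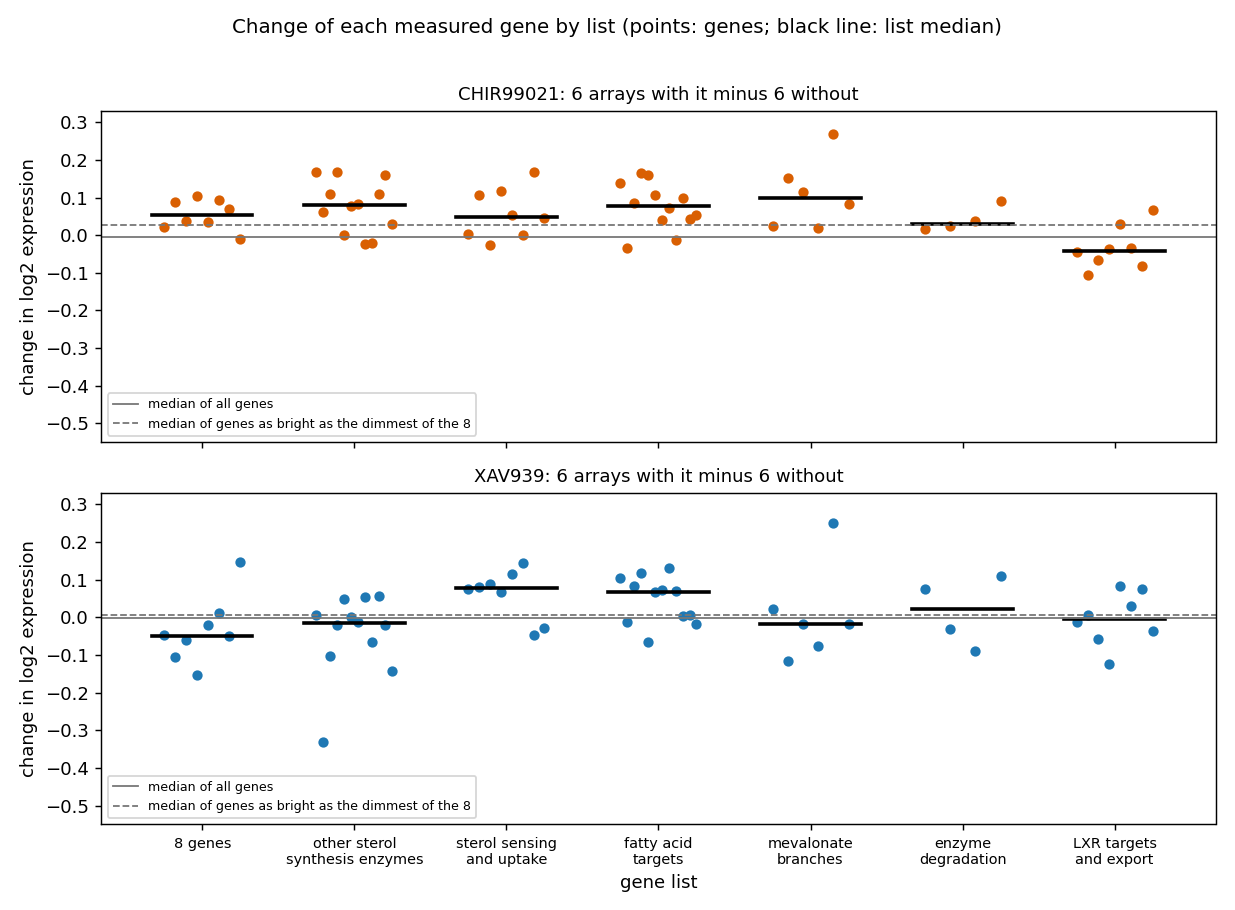
Change in log2 expression (vertical axis) of each measured gene by list, for CHIR99021 (top) and XAV939 (bottom), 6 arrays with the compound minus 6 without; black lines are list medians and grey lines the medians of all genes and of genes as bright as the dimmest of the 8. Points of every list lie close to the grey lines, Pggt1b at 0.27 and Ebp at -0.33 being the farthest.

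By a rule of likeness, 11518 genes above the background measure and outside the lists were set against the mean deviation of the 8 genes over the 12 arrays. The smallest root-mean-square differences, from 0.033 to 0.043 on the log2 scale, belonged to Smarcc1, Psmd2, Gemin5, Pdcd6ip, Eif2d, 9930021J03Rik, Msh6, Eif3f, Ckap5 and Polr2b. The median gene differed by 0.129. The mean profile of the 8 genes itself had a root-mean-square size of 0.051.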

How the data were processed

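Biotin-labelled total RNA was read on 1-colour Affymetrix arrays, per the labels' protocols. The authors deposited 1 value per probe and array, read here as log2 expression; the base was inferred from the range, 2.52 to 14.3. The software was Partek, per the submitters' processing notes; how background, normalization and probe summary were handled is not given in the sources used here. Medians of the arrays ran from 5.22 to 5.27 and standard deviations from 2.14 to 2.21, and no further normalization was applied. Arrays carry no read depth; their number limits the precision.

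Of 35399 probes, 21789 had 1 gene symbol, 1621 had several and 11989 were not listed in the platform annotation; 91 of those with 1 symbol had no match in the RefSeq gene table (GRCm38.p6) and stayed under the symbol they had. Each of 19938 genes was represented by its brightest probe on average; Idi1 and Fdft1 had another probe each. A limma 3.58.1 model (R 4.3.3; lmFit, eBayes, two-sided) took the 4 group means from all 12 arrays together (residual degrees of freedom 8, prior 8.03). The 8 comparisons were each treatment against NT, CHIR + XAV against XAV and against CHIR, the mean CHIR99021 and XAV939 effects (6 arrays against 6) and the interaction, adjusted by Benjamini-Hochberg over all genes, with a call at an adjusted p under 0.05. The fit was tested on simulated data with independent noise, in which 200 genes were shifted in CHIR. Of these, 70.5% were called in CHIR against NT at a shift of 0.5 and 100% at a shift of 1. Shifts as small as the changes fitted for the 8 genes were not simulated. Alternatives were quantile, cyclic loess and median normalization, a filter on dim genes, mean of probes, fits to the compared groups alone, trend and robust eBayes, array weights, a replicate block and leaving out each array. Genes named from each list were the 4 with the smallest p for the mean CHIR99021 effect, unless said otherwise; likeness took the 10 closest genes. Members and lists were chosen with earlier results of these data known. Figures used matplotlib 3.10.9.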

Additional observations from a re-analysis of the deposited data

How the results depend on the processing

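No member was called in any of the 8 comparisons under any of the 24 alternative settings, where they could be run. Fits of the compared groups alone were not possible for the interaction and the mean effects, and the other probe exists for Idi1 and Fdft1 only. In the main fit 0% to 1.59% of all genes were called by comparison, so 0 of 8 is near the share over all genes. Among 1464 recomputed member changes the smallest limma adjusted p was 0.103, for Srebf2 and the mean XAV939 effect with dim genes left out, whose change stayed between 0.13 and 0.17. The sign differed from the main value in 96 of them, none of them called, and in no case where the main change exceeded 0.081 in size; 19 moved by more than 1 SE. Single arrays moved values of Idi1, Lss and Fdft1 by over 1.5 times, as they did some smaller changes of other members: without CHIR replicate 2 the Idi1 change was 0.037 in CHIR against NT and -0.08 for the mean XAV939 effect (main values 0.18 and -0.15), and without CHIR + XAV replicate 1 the mean CHIR99021 change of Lss was 0.17 (main value 0.094). Without NT replicate 3 the Fdft1 change was 0.025 in CHIR against NT and -0.17 in XAV against NT (main values 0.095 and -0.097). Leaving out NT replicate 3 and XAV replicate 2 together, using array standard deviation as a covariate and the other probe were chosen after seeing the data. The replicate block gave 0 called members in each comparison and moved the count over all genes from 84 to 78 for CHIR against NT and from 66 to 3 for the mean XAV939 effect. Of 18 pairs of arrays with the same replicate number, 6 had correlated deviations over 0.1 (range -0.22 to 0.23). Pairs of arrays from different groups with different numbers ranged more widely, from -0.39 to 0.29. Of 12 arrays, 6 correlated best with their own number. These values do not decide whether arrays of the same number were handled together, so the main fit treats them as unpaired. With 3 arrays a group, SEs of member changes between group pairs between 0.069 and 0.10 limit what could be detected.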
